A study of Mus musculus with 26 samples.

Results

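Of 26 single mouse retinal cells profiled on 1 array each, 10 carried a high signal for Gad1, the gene for a GABA-synthesising glutamate decarboxylase, together with a low signal for Slc6a9, the glycine transporter gene of glycinergic amacrine cells. These Gad1-only cells were chosen by their measured values: Gad1 at a signal of 1000 or more and Slc6a9 below 1000, on a linear scale on which the trimmed mean of every array is 500. Of the 10 cells, 4 came from retinas with stated days in culture and 6 came from retinas for which no culture is stated, and these groups were compared. No label names an animal, a retina or a culture, so each group counts as 1 sample. The differences below are therefore descriptions of these 10 cells with no p-value, and the SDs are spreads between cells.

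The study picked green fluorescent amacrine cells by hand from dissociated retinas into which a reporter, pNdrg4::GFP or pSynapsin::GFP, had been electroporated around birth, in the living animal or in explants. The cultured cells were E19 B1, which carried the pSynapsin reporter and had 4 days in culture, P4 A3 and P4 B4, which carried the pNdrg4 reporter and had 4 days in culture, and P5 C6, which carried the pNdrg4 reporter and had 5 days in culture. The cells with no culture stated were P5 A1, A5, A7, A8, B2 and B3, all with the pNdrg4 reporter; they are called uncultured below for short, although the labels only leave a culture unstated. Age and days in culture differ between the groups, and the pSynapsin reporter is in the cultured group alone, so culture, age and reporter cannot be told apart over all 10 cells. P5 C6 is the cultured cell that shares both the P5 label and the reporter with the uncultured cells, and its own value is given wherever cells are listed one by one. It differs from all of them in the sex-linked gene Xist, given below. Strain and sex are not given in the sources used here. Signals of sex-linked genes, given below, differed between most cells of the groups, so sex cannot be told apart from culture either. The labels also do not settle how an E19 title fits with a reporter introduced around birth.

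Amacrine cells are interneurons of the inner retina that release mainly GABA or glycine onto bipolar, ganglion and other amacrine cells. Glutamate decarboxylase makes GABA, and a vesicular transporter shared with glycine loads it for release. Cells break glucose down to pyruvate by glycolysis. Pyruvate then either becomes lactate, through lactate dehydrogenase, or enters mitochondria for the citric acid cycle and the respiratory chain. The retina is known for a high rate of lactate production even with oxygen present, and many glycolytic genes are targets of the hypoxia-inducible factors, transcription factors that accumulate when oxygen is low.

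The rule separated the cells widely. Gad1 ran from 6304 in P4 A3 to 28786 in P5 A5 among the 10 cells. The cell nearest to the limit from below, P5 D3, had a Gad1 signal of 88.9, and the nearest from above, P5 A6 at 2471, was left out by its Slc6a9 signal of 15300. Slc6a9 was between 15.6 and 242 in the 10 cells, while P5 D6, just inside that limit at 990, had a Gad1 signal of 58.5 and was no member. Gad1 read 7943 in E19 B1, 6304 in P4 A3, 27313 in P4 B4 and 16150 in P5 C6, against a lowest value of 6639, a median of 10552 and a highest of 28786 in the uncultured cells. These ranges overlap nearly completely, and the group means, taken as log2 of the signal after values under 200 were raised to 200, differed by -0.02.

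The label of GABAergic amacrine cells was set against some markers. The amacrine factors Tfap2a and Tfap2b and markers of starburst and dopaminergic amacrine cells were also listed for this check and are not given here. Pax6, a transcription factor of amacrine cells, had a signal of 1000 or more, called detected here, in 10 of 10 cells. Gad2, the second glutamate decarboxylase, was detected in 2 of 4 cultured and 5 of 6 uncultured cells. Slc32a1, the vesicular transporter, was detected in 3 of 4 and 4 of 6. Slc6a5, the second glycine transporter, was detected in none of the 10 cells, with a highest signal of 61.2.

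Cultured cells tended to hold more detected genes. The number was 2306 in E19 B1, 3418 in P4 A3, 2552 in P4 B4 and 3925 in P5 C6, against 1909, 2239 and 2583 as the lowest, median and highest of the uncultured cells. P4 A3 and P5 C6 were above every uncultured cell, and the other cultured cells were inside their range. A detection in 2 or more of the 10 cells was asked of a gene, which 5537 of 18193 genes met, and over these the median difference was 0.34 log2 units, cultured minus uncultured, so a gene or list is best read against that shift. Genes higher in the cultured cells by at least 2 log2 units, a 4-fold difference, numbered 737, or 13.3% of those compared, and genes lower by that much numbered 235, or 4.24%. After the median of all genes was subtracted the counts were 465 and 390, so that the share of higher genes among those past the limit went from 75.8% to 54.4%. Genes whose signals did not overlap at all between the groups were rarer: 39, or 0.704%, were higher in every cultured cell, and 9, or 0.163%, were lower in every cultured cell. These 2 counts rest on every cell: without E19 B1 they were 135 and 21, and over all cells left out in turn 50 to 135 and 14 to 21, where fewer cells have to stand apart. Without P4 A3, P4 B4, P5 C6, P5 A7, P5 A1 or P5 A5 both moved by over 1.5 times, and without P5 B2, P5 B3 or P5 A8 the lower count did, to 20, 17 and 19. Likeness between cells overlapped within and between groups: Spearman's rho over the 5537 genes had a median of 0.24 in 6 pairs of cultured cells, 0.21 in 15 pairs of uncultured cells and 0.22 in 24 mixed pairs. Those correlations are across genes of cells that share amplification and array steps and are given as a description.

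Sex-linked genes also differed between the groups, while P4 A3 and P5 B3 were under detection for both Xist and Eif2s3y. Xist, the RNA that coats the inactive X chromosome, read 57612 in E19 B1, 81.4 in P4 A3, 66989 in P4 B4 and 16686 in P5 C6, against 6.47 to 153 in the uncultured cells. Eif2s3y, a Y-linked gene, read 32.2, 291, 69.9 and 1.91 in the same 4 cells, all under detection, and 13.3, 3908 and 10929 as lowest, median and highest in the uncultured cells, of which 5 of 6 had it. Which other named genes lie on the X or Y chromosome was not examined, apart from Pdha1 below. The part of sex in the differences described here, those of single named genes included, was not tested.

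Many genes of glycolysis stood low in the cultured cells. Of 30 measured members of a hypoxia and glycolysis list, 19 entered the comparison, and 9 of these were lower by at least 2 log2 units while 0 were higher by as much; over all genes the shares were 4.24% and 13.3%. Below 0 were 14 of the 19, and their median was -1.72 against 0.34 over all genes. The 9 were Aldoa, Pfkp, Ldha, Slc16a3, Tpi1, Pfkl, Slc2a3, Higd1a and Pgam1. Over all 30 measured members, with genes below detection included, the median was -0.61. Without P4 B4 the median of the members that entered was -1.09. With P5 C6 as the only cultured cell it was -0.91 beside a median of 1.0 for all genes. In that setting 3 of the 19 were lower and 1 higher by at least 2 log2 units, beside 10% and 31.5% of all genes. With the median over each gene's probe sets 5 of 18 were lower and 0 higher, beside 3.53% and 10.4% of all genes.

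Ldha, the lactate dehydrogenase subunit that turns pyruvate into lactate, did not overlap between the groups. Its probe set read 1638 in E19 B1, 2179 in P4 A3, 1456 in P4 B4 and 8768 in P5 C6, against 14019, 34634 and 77659 as the lowest, median and highest of the uncultured cells. Every cultured cell was below every uncultured cell, and P5 C6 was the closest. The means were 11.34 ± 1.20 (SD, n = 4 cells) and 15.00 ± 0.84 (SD, n = 6 cells), a difference of -3.65, which lay between -4.24 and -3.37 when each cell was left out in turn. Tpi1, triosephosphate isomerase, read 12272, 1812, 32.4 and 6594 in E19 B1, P4 A3, P4 B4 and P5 C6, and 14350, 22086 and 39762 as lowest, median and highest in the uncultured cells. Pgam1, phosphoglycerate mutase, read 14027, 9436, 3378 and 9536 against 20767, 33149 and 61428. Those groups did not overlap either, and the differences of means were -3.30 for Tpi1 and -2.02 for Pgam1. These 3 are among 19 list members that entered, and over all 5537 genes 9, or 0.163%, were lower in every cultured cell. The 9 were picked by these same values and their number was 14 to 21 with single cells left out, so no share is read from them.

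The other low enzymes overlapped in part. Aldoa, aldolase A, read 101 in E19 B1, 3432 in P4 A3, 406 in P4 B4 and 7852 in P5 C6, and 4909, 41999 and 69370 as lowest, median and highest in the uncultured cells. Only P5 C6 reached into the uncultured range, where P5 B2 was the low cell, and the difference of -4.50 was the widest of the list. The probe sets used for Aldoa and Tpi1, as for Tbca, Timm17b, Psmc2, Rps14 and Jpt1 below, carry the suffix for probes that may also match other sequences. Pfkp, the platelet-type phosphofructokinase, read 128, 21029, 3867 and 10700 against 18876, 55580 and 91400; E19 B1 set much of its difference, which was -3.73 with that cell and -2.34 without it. Pfkl, the liver-type phosphofructokinase, read 5826 in E19 B1 but 438, 146 and 314 in the other cultured cells, and 1286, 6763 and 19840 in the uncultured cells, for a difference of -3.11.

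The transporters split. Slc16a3, the exporter of lactate, was below detection in all 4 cultured cells, at 29.8, 130, 185 and 43.6, and was detected in 3 of 6 uncultured cells, A1, B3 and A8, at 21397, 11597 and 29370. Slc2a3, the neuronal glucose transporter, read 111, 20.0, 631 and 8196 against 56.4, 12719 and 45569, a difference of -2.66 with wide overlap. Slc2a1, the other main glucose transporter, stood the other way: it read 14066, 11139, 18367 and 2321, with 42.7, 13811 and 43166 in the uncultured cells, and differed by 1.08.

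Several members were level or only a little lower. Pgk1, phosphoglycerate kinase, read 17494, 12998, 1724 and 12500 against 6183, 31887 and 35710, a difference of -1.49 with overlap. Pkm, pyruvate kinase, differed by 0.64, Hk1, hexokinase, by -0.46 and Pfkm, the muscle-type phosphofructokinase, by 0.89, each with SDs over 1 log2 unit in both groups. Hif1a, the hypoxia-inducible factor's regulated subunit, was detected in all 4 cultured cells, from 10073 to 20528, and in 4 of 6 uncultured cells. Vegfa, Car9 and Egln3, targets of that factor, were detected in 0 of the 10 cells. Gapdh and Eno1 were not analysed here.

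**Figure D1:**
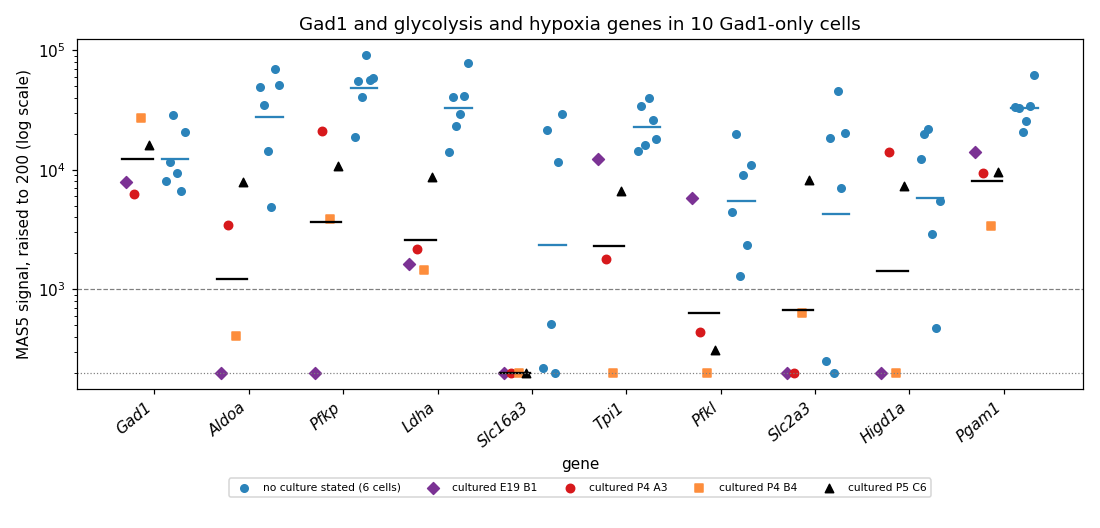
Signals of Gad1 and the 9 hypoxia and glycolysis genes lower by at least 2 log2 units, in each of the 10 Gad1-only cells (signal raised to 200, log axis). Coloured symbols at the left of each gene are the 4 cultured cells, blue points at the right the 6 uncultured cells, bars the means on the log scale, the dashed line the detection level of 1000 and the dotted line the floor of 200. The 10 cells were chosen by Gad1 and the other genes by their differences; cultured cells lie below uncultured ones without overlap in Ldha, Tpi1 and Pgam1.

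Averaged per cell, the 19 genes overlapped between the groups. The mean log2 signal was 10.40 in E19 B1, 11.35 in P4 A3, 9.73 in P4 B4 and 11.60 in P5 C6, and ran from 11.02 to 13.78 in the uncultured cells. P5 B2 and P5 A7, at 11.02 and 11.24, were below P4 A3 and P5 C6. The group means were 10.77 ± 0.87 (SD, n = 4 cells) and 12.33 ± 1.14 (SD, n = 6 cells). The cultured cells with more detected genes, P4 A3 and P5 C6, had the higher means among the cultured cells.

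**Figure D2:**
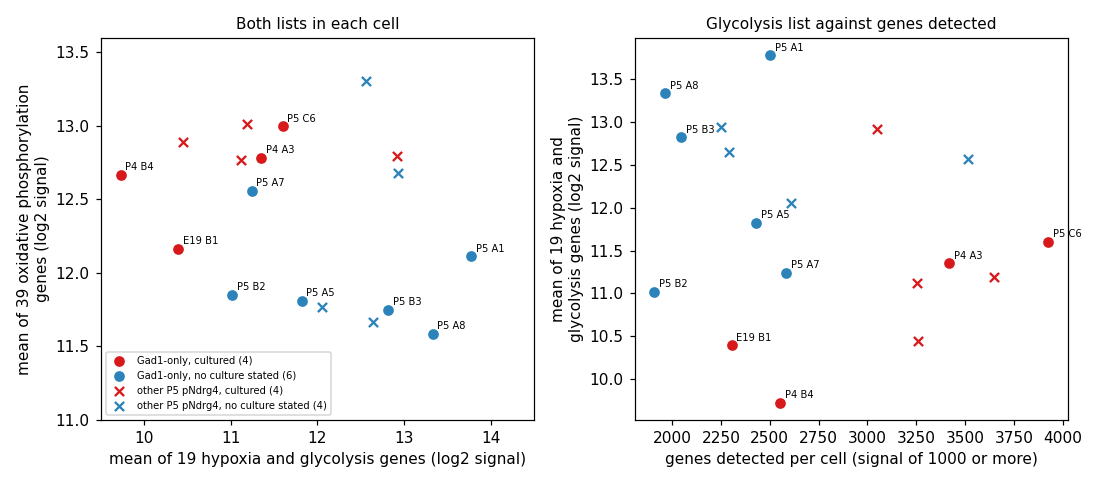
Left, the mean log2 signal of 39 oxidative phosphorylation genes against that of 19 hypoxia and glycolysis genes; right, the latter mean against the number of genes detected, with 1 point a cell. Filled circles are Gad1-only cells and crosses the other P5 pNdrg4 cells, red for cultured and blue for no culture stated. The Gad1-only cultured cells lie at 9.73 to 11.60 on the glycolysis axis and the uncultured ones at 11.02 to 13.78.

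The same lists were read in the 8 other P5 cells with the pNdrg4 reporter, 4 cultured for 5 days (C1, D3, D5 and D6) and 4 with no culture stated (A2, A6, B1 and B4), which share no cell with the Gad1-only comparison. Of these, 6 of 8 have Slc6a9 at 1000 or more. Xist was detected in 4 of 4 of these cultured cells and 0 of 4 of these uncultured cells, a difference of 7.16. Sex cannot be told apart from culture among these cells either. There, 863 of 5524 genes (15.6%) were higher and 450 (8.15%) lower by at least 2 log2 units, 2.23% and 1.57% were higher and lower without overlap, the median of all genes was 0.25, and 20 glycolysis and hypoxia genes had a median of -0.98 with 5 lower and 2 higher by that much. Ldha differed by -3.71 there and by -3.65 in the Gad1-only cells. Aldoa differed by -2.33 against -4.50, Pfkp by -1.84 against -3.73, Tpi1 by -1.76 against -3.30 and Pgam1 by -0.44 against -2.02. Pkm and Slc2a1 differed by -2.42 and -2.41 there and by 0.64 and 1.08 here. Whether any of these differences differ between the sets of cells was not tested.

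Promoter windows of 3 of the low enzymes are given because the list is one of hypoxia and glycolysis genes and these are the 3 whose groups did not overlap. Each window is the 250 bases before the annotated start, from RefSeq on build GRCm38.p6, written in the direction of the gene, at chr7:46845554-46845803 on the plus strand for Ldha, chr19:41911621-41911870 on the plus strand for Pgam1 and chr6:124814159-124814408 on the minus strand for Tpi1. Capitals mark ACGTG on either strand, a form of the core letters of the hypoxia response element. GCGTG, the other form searched, is not marked.
Ldha: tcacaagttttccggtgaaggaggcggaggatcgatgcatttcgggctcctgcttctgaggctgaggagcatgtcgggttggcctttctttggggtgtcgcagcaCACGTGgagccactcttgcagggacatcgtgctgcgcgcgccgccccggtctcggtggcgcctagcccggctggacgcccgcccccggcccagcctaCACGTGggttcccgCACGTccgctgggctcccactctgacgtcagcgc
Pgam1: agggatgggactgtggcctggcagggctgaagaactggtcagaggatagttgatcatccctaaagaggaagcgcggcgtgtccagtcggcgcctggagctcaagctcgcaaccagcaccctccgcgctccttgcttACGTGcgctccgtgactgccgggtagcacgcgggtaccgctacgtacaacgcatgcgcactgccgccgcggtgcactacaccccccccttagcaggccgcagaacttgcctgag
Tpi1: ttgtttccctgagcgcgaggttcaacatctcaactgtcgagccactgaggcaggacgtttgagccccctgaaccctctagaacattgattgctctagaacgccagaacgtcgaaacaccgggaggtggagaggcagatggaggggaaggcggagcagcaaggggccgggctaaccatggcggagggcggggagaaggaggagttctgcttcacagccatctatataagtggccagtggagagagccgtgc

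The Ldha window holds 5 matches, counted on both strands, and CACGTG, the E-box, which holds ACGTG on each strand, counts as a match on each. The Pgam1 window holds 1 and the Tpi1 window 0. A second annotated Ldha window holds 0. When GCGTG was searched too and overlapping matches were merged, the Ldha windows held 3 places and 1, the Pgam1 window 3 and the Tpi1 window 0. Of 11 windows of the lower members, 8 of whose 9 genes could be matched, 5 (45.5%) held the letters, as did 10 of 15 windows (66.7%) of the 10 other members that entered. Over all genes that entered it was 1360 of 6031 windows (22.6%), and over all windows given by RefSeq 5444 of 32851 (16.6%). The lower members did not hold ACGTG in a larger share than the rest of their list. Either form was held by 9 windows of the lower members (81.8%) and 12 of the other members (80.0%). Over all genes that entered it was 3512 windows (58.2%). A match is a description of letters, and binding was not measured.

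Respiratory chain genes were spread on both sides of the background. Of 40 measured oxidative phosphorylation genes 39 entered, 7 were higher and 3 lower by at least 2 log2 units, and the median was 0.68 against 0.34 over all genes; the 7 are 17.9% of the list beside 13.3% of all genes, and the 3 are 7.69% beside 4.24%. Without P5 C6 the median was 0.40 beside 0.28 for all genes. With P5 C6 as the only cultured cell it was 0.91 beside 1.0 for all genes, and with group medians 0.50 beside 0.49. The list median was thus below that of all genes for P5 C6 alone and nearly level with it for group medians. Ndufb3, a subunit of complex I, read 4524 in E19 B1, 11589 in P4 A3, 30344 in P4 B4 and 6698 in P5 C6, against 20.8, 89.0 and 3186 as lowest, median and highest in the uncultured cells. Its groups did not overlap, P5 B2 being the uncultured cell with signal, and the difference was 5.00. Ndufs4, another complex I subunit, was even among the cultured cells, at 6099, 5940, 6862 and 4038, while 1 of 6 uncultured cells had it, at 9164, and the median there was 142. Ndufb9, also of complex I, read 19340, 11718, 23163 and 7896 against 59.8, 979 and 24968. Atp5g1, Cyc1, Cycs and Cox8a, of the ATP synthase, complex III, the electron carrier and complex IV, differed by 2.57, 2.55, 2.25 and 2.05.

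Against these, Uqcrc1, a core subunit of complex III, was detected in 6 of 6 uncultured cells, from 2129 to 15871, and read 152, 4594, 119 and 1407 in the cultured cells, a difference of -3.51. Uqcrb, of the same complex, and Cox5b, of complex IV, differed by -2.37 and -2.23. Per cell the mean of the 39 genes was 12.17 to 13.00 in the cultured cells (12.65 ± 0.35, SD, n = 4 cells) and 11.59 to 12.56 in the uncultured cells (11.95 ± 0.35, SD, n = 6 cells), so the groups overlap. The number of the 39 genes detected was 31 to 38 and 24 to 31, which moves with the number of genes detected per cell, and the part of that number was not tested. In the other P5 pNdrg4 cells 5 of 39 were higher and 1 lower by at least 2 log2 units, with a median of 0.39.

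Suclg1, Sdhaf2 and Pdha1 were seen among the genes that did not overlap, and a list of pyruvate oxidation and citric acid cycle genes was then drawn up, after the values were known. Of 22 measured members 17 entered, 6 (35.3%, beside 13.3% of all genes) were higher and 0 (beside 4.24%) lower by at least 2 log2 units, and the median was 0.79. Since 3 of the 6 had prompted the list, nothing is read from that share. With P5 C6 as the only cultured cell the median was 0.96 beside 1.0 for all genes. Suclg1, a subunit of succinyl-CoA ligase, read 14994, 2141, 5459 and 4612 in E19 B1, P4 A3, P4 B4 and P5 C6, and at most 122 in the uncultured cells. Pdha1, the X-linked subunit of pyruvate dehydrogenase, read 2091, 3544, 13081 and 1635 against at most 214. Sdhaf2, an assembly factor of succinate dehydrogenase, read 2983, 6131, 7363 and 2138 against at most 306. All 3 were detected in every cultured cell and in no uncultured cell. Mdh2, Sucla2 and Fh1, of malate dehydrogenase, succinyl-CoA ligase and fumarase, were higher by 2.90, 2.48 and 2.43 with overlap. Idh3b and Mpc1, an isocitrate dehydrogenase subunit and the pyruvate carrier, were the members below 0, at -1.54 and -1.17. In the other P5 pNdrg4 cells Suclg1, Pdha1 and Sdhaf2 differed by -0.16, 0.37 and 0.53, and none of 18 members was past 2 log2 units in either direction.

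**Figure D3:**
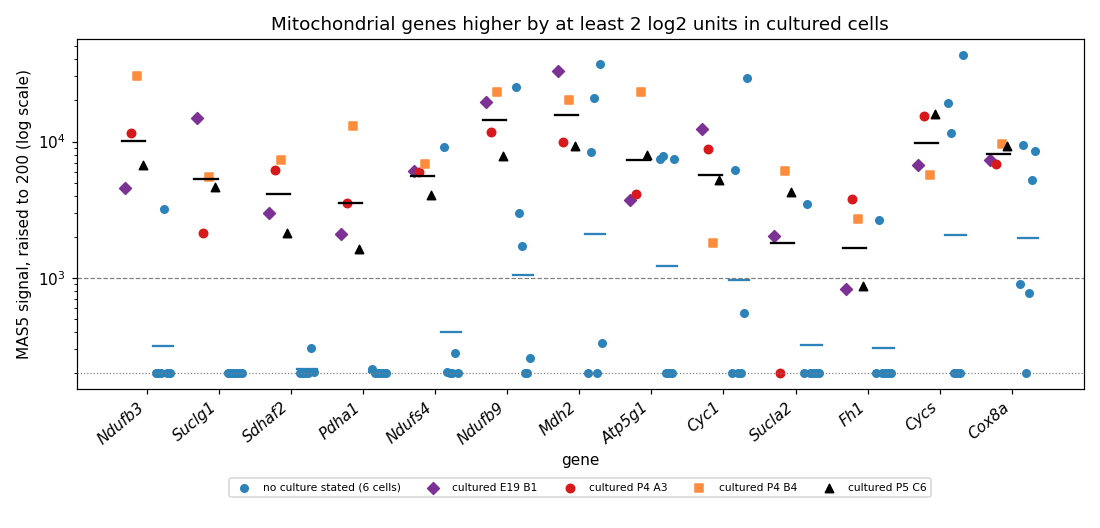
Signals of the oxidative phosphorylation and citric acid cycle genes higher by at least 2 log2 units in the cultured cells, in each of the 10 Gad1-only cells (signal raised to 200, log axis). Coloured symbols at the left are the 4 cultured cells, blue points at the right the 6 uncultured cells, bars the means on the log scale, and the dashed and dotted lines mark 1000 and 200. The genes were chosen by their difference, and for Ndufb3, Suclg1, Sdhaf2 and Pdha1 the groups do not overlap.

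Of the genes highest in the cultured cells over the whole array, Stox2, a winged-helix gene related to storkhead box 1, led with a difference of 5.95. It read 14909 in E19 B1, 17781 in P4 A3, 34853 in P4 B4 and 8176 in P5 C6, and 505 at most in the uncultured cells. In the other P5 pNdrg4 cells Stox2 differed by -2.39. Lsm3, a spliceosome and RNA decay protein, read 12152, 9507, 10455 and 4506, and 16.7, 44.0 and 1082 as lowest, median and highest in the uncultured cells. Nifk, a nucleolar protein, read 13269, 5317, 12873 and 1315 against at most 159, and Zscan18, a zinc finger gene, 14399, 4981, 3532 and 2441 against at most 80.6. Fam133b read 5037, 2467, 11030 and 6606 against at most 955. In these genes every cultured cell was above every uncultured cell.

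Other genes of the top group were under detection in all uncultured cells but 1. Timm17b, a subunit of the mitochondrial import channel, differed by 4.79, Gprasp2, a receptor-sorting protein, by 4.79, Fundc2, an outer mitochondrial membrane protein, by 4.65, Srsf12, a splicing regulator, by 4.53 and Ppil2, a cyclophilin of the spliceosome, by 4.37. Each was detected in all 4 cultured cells and in 1 of 6 uncultured cells. Timm17b and Gprasp2 were both present in P5 B3, at 16652 and 17989, and Fundc2 in P5 B2 at 31943. P5 B3 is also the uncultured cell under detection for the Y-linked Eif2s3y, at 13.3. The part of sex in these genes was not tested. Of the 39 genes that were higher without overlap, 31 were below detection in every uncultured cell and 25 were detected in all 4 cultured cells. A further example is Psmc2, an ATPase of the proteasome, at 14625, 8494, 7573 and 9341 against 93.1, 1230 and 4202, a difference of 3.56.

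Of the genes lowest in the cultured cells, Cdk16, a cyclin-dependent kinase of neurons, differed by -4.31. It was at 37.3, 1.62 and 3.51 in E19 B1, P4 A3 and P4 B4 and at 3283 in P5 C6, while all 6 uncultured cells had it, from 2551 to 16766. Tbca, a tubulin-folding cofactor, read 116, 14.2, 87.0 and 11302 against 638, 16128 and 27873. Its difference of -4.21 therefore rests on the E19 and P4 cells, and P5 C6 alone differed by 0.15. Usf2, an E-box transcription factor, read 56.2, 158, 31.2 and 4679 against 1629, 7464 and 15419. Myl12a, a regulatory myosin light chain, read 4.16, 63.7, 6.36 and 2868 against 5.82, 11239 and 17467. P5 C6 was thus the high cultured cell in Cdk16, Tbca, Usf2 and Myl12a, and in those genes the cultured cells of other ages were at the floor.

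Dpf2, a chromatin remodelling subunit, was high in P4 A3 at 3680 and read 92.1, 332 and 236 in E19 B1, P4 B4 and P5 C6, against 3326, 9506 and 15467, for a difference of -4.15. Apc2, a neuronal relative of the APC protein, was detected in 0 of 4 cultured and 5 of 6 uncultured cells and differed by -4.18. The same held for Supt6, a transcription elongation factor, at -3.80, Aarsd1, an alanyl-tRNA editing protein, at -3.79, Ift46, a ciliary transport protein, at -3.59, and Gtpbp6 at -3.51. In the other P5 pNdrg4 cells Tbca, Supt6 and Gtpbp6 differed by 1.03, 0.89 and 1.12, Apc2 by -1.35 and Ift46 by -2.85.

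The genes lower in every cultured cell were, beside Ldha, Tpi1 and Pgam1, Brk1, Jpt1, Rps14, Thap7, Gm4802 and 3000002C10Rik. Brk1, a subunit of the actin-regulating WAVE complex, read 844, 9034, 3170 and 5379 against 18899, 27517 and 35737, a difference of -3.05, and differed by 0.14 in the other P5 pNdrg4 cells. Jpt1 read 25559, 23432, 3744 and 17519 against 28207, 41232 and 70434. Rps14, a protein of the small ribosomal subunit, was close among the cultured cells, at 25329, 18929, 29116 and 22091, and ran from 31603 to 105862 in the uncultured cells.

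Over all 5537 genes 13.3% were higher and 4.24% lower by at least 2 log2 units, 2154 were below 0 and the median was 0.34. Over the lists, 0 of 26 ribosomal protein genes were past 2 log2 units in either direction, with a median of -0.22. Of 17 actin and tubulin genes 0 were higher and 1 (5.88%, near the share of all genes) lower, Kif5c, a kinesin heavy chain, at -2.37. Below 0 were 13 of the 17, with a median of -0.80. Tubb5, a beta-tubulin, read 30606, 12467, 5381 and 13734 against 20153, 42747 and 102062, a difference of -1.74. Tubb2b and Tubb3 differed by -1.67 and -1.53 and Actg1, gamma-actin, by -1.13. Under quantile normalization the median of the cytoskeleton list was -0.12 beside 0.14 for all genes, still below 0 but smaller in size. Genes of growing neurons had a median of -0.62, with 17 of 22 below 0, and -0.11 under quantile normalization. Cd24a, a surface protein of immature neurons, read 33728, 6.83, 24404 and 4520 against 5101, 52912 and 99802, and Mapt, tau, 556, 22199, 139 and 1127 against 33.5, 12019 and 38110. Elavl4, a neuronal RNA-binding protein, was higher by 2.65.

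Presynaptic genes had a median of 0.47, with 5 of 22 higher by at least 2 log2 units (22.7%, beside 13.3% of all genes) and 0 lower. Rims2, an active zone protein, read 41898 in E19 B1, 3334 in P4 A3, 37018 in P4 B4 and 2091 in P5 C6, and was detected in 1 of 6 uncultured cells, A1 at 18641. The difference was 4.58 on the probe set used and -0.38 on the median of its 5 probe sets, which disagree. Nrxn3, a neurexin, differed by 2.55, Pclo and Bsn, large scaffolds of the active zone, by 2.43 and 2.32, and Sv2a, a vesicle protein, by 2.01. In each of these 4 at least 1 cultured cell was under detection. On the median over probe sets 1 of 18 members was higher, beside 10.4% of all genes, with a median of 0.24 beside 0.25 for all genes. Without E19 B1 the median of the list was 1.01 and without P5 C6 it was 0.16. The list was 2 higher and 0 lower of 19 in the other P5 pNdrg4 cells.

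**Figure D4:**
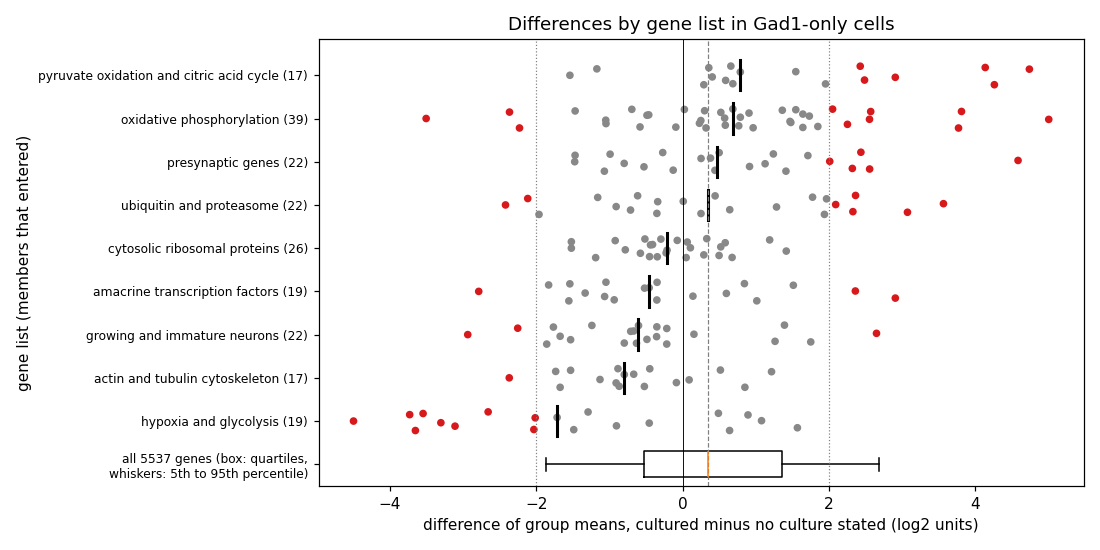
Difference of group means, cultured minus no culture stated, for members of 9 gene lists in Gad1-only cells (log2 units), with the box for all 5537 genes at the bottom. Each point is a gene, red when it is past 2 log2 units, black bars are list medians, the dashed line is the median of all genes at 0.34 and dotted lines mark 2 log2 units. The hypoxia and glycolysis list has its median at -1.72 and the oxidative phosphorylation list at 0.68.

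Genes of GABA handling did not part the groups. Gad2 read 153, 4929, 12.8 and 8878 in E19 B1, P4 A3, P4 B4 and P5 C6, and 7.29, 3919 and 25921 as lowest, median and highest in the uncultured cells, a difference of -1.44. Slc32a1 differed by 0.78, the plasma membrane GABA transporter Slc6a11 by -0.42 and Abat, which begins GABA breakdown, by 0.88. Slc6a13, another GABA transporter, was at or under 173 in every cell. Aldh5a1, which completes the breakdown to succinate, was the member past 2 log2 units: it read 10067, 2364, 13.0 and 1353, and 102 at most in the uncultured cells, a difference of 2.99, with P4 B4 low. Receptor genes for GABA and glycine were above 0 in 7 of 7, from Glra3 at 1.67 down, with 0 past 2 log2 units and a median of 0.66, while 3383 of all 5537 genes were above 0 with a median of 0.34. Of 12 ionotropic glutamate receptor and scaffold genes, Homer1, which is also on the list of activity genes, differed by 2.01 and Dlg2 by -2.53.

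Amacrine transcription factors had a median of -0.46 beside 0.34 for all genes, with 12 of 19 below 0. Of the 19, 2 were higher (10.5%, beside 13.3% of all genes) and 1 lower (5.26%, beside 4.24%) by at least 2 log2 units. Tfap2c, an AP-2 factor, read 12496 in E19 B1 and 10072 in P4 A3 but 96.9 and 13.0 in P4 B4 and P5 C6, and 122 at most in the uncultured cells. Tcf4, a bHLH factor, read 21482, 1.46, 6226 and 4.44, with 1 of 6 uncultured cells above detection at 1044, and its difference of 2.36 was 1.09 without E19 B1 and -0.57 for P5 C6 alone. Lmo4, a LIM-only cofactor, was at most 14.4 in the 4 cultured cells and detected in 4 of 6 uncultured cells, up to 10230, a difference of -2.79 beside -2.26 in the other P5 pNdrg4 cells.

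Of 18 genes of the unfolded protein and integrated stress responses 2 were higher (11.1%, near the 13.3% of all genes) and 0 lower: Ddit3, the stress factor CHOP, read 9086, 5097, 350 and 4399 against 19.9, 92.5 and 14654, a difference of 2.72, and Pdia6, a disulphide isomerase, differed by 2.29. Of 17 heat shock genes 1 (5.88%) was higher, Bag1 at 2.03. Of 7 genes of cell death and the p53 response 2 (28.6%) were higher: Mdm2, the ligase that degrades p53, read 8604, 2075, 283 and 3967 against at most 95.9, a difference of 3.40 without overlap, and Mcl1, a survival factor, differed by 2.80. Mdm2 was higher by 2.31 in the other P5 pNdrg4 cells. Of 6 activity genes, Gadd45g, a stress and growth arrest gene, was at most 167 in the 4 cultured cells and from 6008 to 12066 in 4 of 6 uncultured cells, A5, B2, B3 and A8, a difference of -3.61.

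Of 22 ubiquitin and proteasome genes 5 (22.7%, beside 13.3% of all genes) were higher and 2 (9.09%, beside 4.24%) lower by at least 2 log2 units, with a median of 0.35 beside 0.34 for all genes. Psmd1, Psma6 and Psmd14, subunits of the proteasome, were higher by 3.07, 2.36 and 2.33, and Psmd2 and Psma7 stood at -2.42 and -2.12. Among guidance and adhesion genes, Efnb2, an ephrin, read 9335, 2966, 2288 and 3.85 against at most 135, a difference of 3.24 beside 2.99 in the other P5 pNdrg4 cells. Pcdh19, a protocadherin, read 10386, 1352, 3609 and 2118 against 3.29, 61.4 and 1849, a difference of 3.07 beside -2.25. Chgb, a granin of dense-core vesicles, was higher by 2.21, while the neuropeptide genes Cartpt and Tac1 were each carried by single cells, Cartpt by P4 A3 at 40548 and P5 A5 at 63355 and Tac1 by P5 A7 at 63687.

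Markers of other cells were read as whole lists. Of 21 markers of astrocytes, microglia, vessels and blood 20 were detected in 0 of the 10 cells, among them Gfap, C1qa and Aif1. Summed signals of 19 rod markers ran from 17905 to 59920 in the cultured cells and from 20780 to 87261 in the uncultured cells, with 11 markers at 0 cells. Gnb1, which is not limited to rods, was detected in 9 of the 10 cells. Its share of these sums is not given, and the source of the rod marker signals was not tested. Summed signals of 19 Muller glia markers ran from 15406 to 50691 and from 7996 to 70175, with 9 at 0 cells. Dkk3, a secreted Wnt modulator on that list, was high in all 4 cultured cells, at 7594, 5996, 14130 and 9687, and in 2 of 6 uncultured cells, a difference of 3.04 beside -2.55 in the other P5 pNdrg4 cells. The medians of the rod and Muller lists were -0.65 and -0.14 in the Gad1-only cells and -2.81 and -2.60 in the other P5 pNdrg4 cells, where 6 of 7 members of each were lower by at least 2 log2 units, beside 8.15% of all genes. Their part in the differences was not tested.

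A last set holds 24 genes that had been picked as differing between all cultured and all uncultured P5 pNdrg4 cells. That choice used 7 of these 10 cells and all 8 of the others, so the values are a description. Among the Gad1-only cells 20 of the 24 entered, 4 were higher and 4 lower by at least 2 log2 units, and 7 of 20 were above 0. Crym, a thyroid hormone binding protein, differed by -0.52 in the Gad1-only cells and by -6.87 in the others, being detected in P4 A3, P5 B3 and P5 A8 alone among the 10. Robo3, a guidance receptor, was under detection in all 10 and differed by 5.13 in the others. Nhlh2, a bHLH factor, differed by 0.60 and 4.65, Lamtor1, a lysosomal scaffold, by -0.09 and 4.65, and Ier5, an early response gene, by -1.62 and 3.66. Slc16a3 and Gadd45g stood low in both, at -3.55 and -3.61 here and -4.94 and -4.12 there, as did Ctxn1, a neuronal membrane protein, at -2.86 and -3.48. Ctxn1 read 36204 in E19 B1, 8503 in P4 A3, 182 in P4 B4 and 2791 in P5 C6 against 15591, 20546 and 58033, and differed by -1.47 without P4 B4. Sphkap, an anchoring protein for kinase A, read 36884, 9.77, 35.1 and 4664 against at most 993; its difference of 2.63 was 1.13 without E19 B1, -0.39 for the P4 cells alone, and 4.64 in the others. Pnmal2 differed by 2.15, and by 3.31 without E19 B1, where it was under detection.

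**Figure D5:**
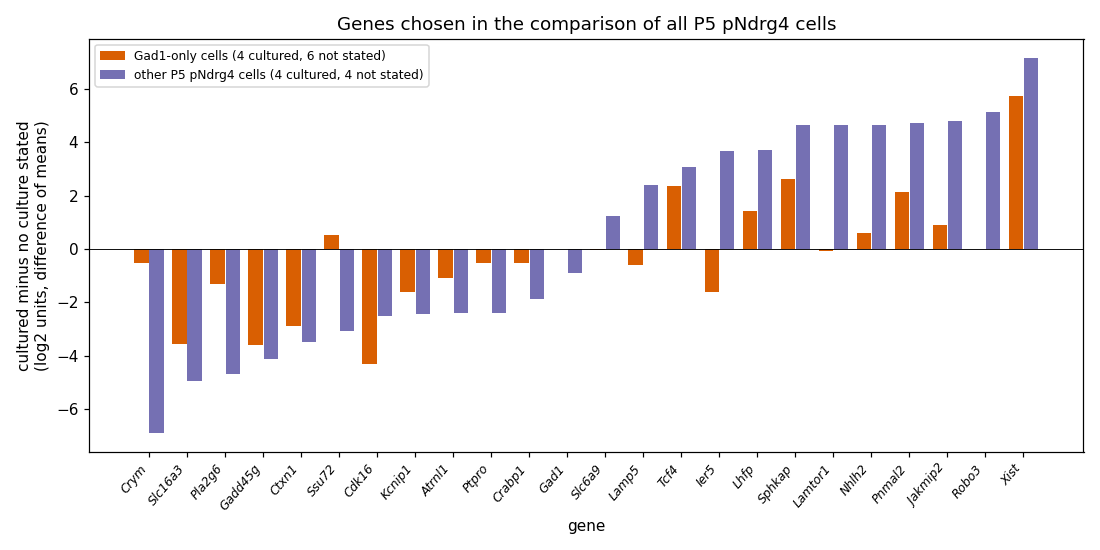
Differences of group means, cultured minus no culture stated (log2 units), for 24 genes picked in the comparison of all P5 pNdrg4 cells, ordered by their value in the 8 other P5 pNdrg4 cells (purple); orange bars are the 10 Gad1-only cells. Crym stands at -0.52 and -6.87, Robo3 at 0.00 and 5.13, and Xist at 5.74 and 7.16.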

How the data were processed

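Each of 26 single mouse amacrine cells was hybridised to 1 Affymetrix mouse expression array after reverse transcription from an oligo dT primer and 35 PCR cycles per the labels' protocols. The deposited values are linear intensity values per probe set (signals), which per the submitters' processing notes the authors computed with MAS5; no source used here gives its version. Each array's mean, trimmed by 2% at each end, is 500, so no further scaling was done. PCR amplification from 1 cell makes drop-outs and uneven signals between cells, and 1 array a cell limits the precision.

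Of 45101 probe sets, 34945 name 1 gene, 932 several and 9160 none, apart from 64 controls. Each gene was read from 1 probe set, that of highest mean over all 26 cells on the scale of log2 after raising low signals to 200. Genes at 1000 or more in at least 2 of the 10 cells entered. A difference is the cultured mean minus the uncultured mean of log2(signal raised to 200); the floor understates differences of low genes, and no order is read among values at the floor. Levels of different genes were not compared. No p-value is given, since no label ties cells to animals.

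Genes were named by a rule: among genes without clone-type symbols, detected in all or all but 1 cells of the higher group, the 14 highest and 14 lowest differences; in each list up to 6 members with the widest differences; the measured GABA genes; and 24 genes of the comparison of all P5 pNdrg4 cells. Others, such as genes without overlap, level glycolysis genes and marker genes, were named after their values were seen. Members and lists were chosen with earlier results of these data known, and the citric acid cycle list, the other P5 cells and the median-centred counts were added after the data were examined. The steps were tested on simulated data. Software was matplotlib 3.10.9, scipy 1.17.1, pandas 2.3.3 and numpy 2.4.6 under Python 3.11.15.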

Additional observations from a re-analysis of the deposited data

Results flagged for a closer look

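Of 69 groups of values examined (each gene named by its difference, and the per-cell summaries, in the cultured and in the uncultured cells), 20 held a highest or lowest cell that stood apart from the rest by more than Dixon's 95% critical value. No chance rate is given for these flags, since the genes were chosen by their differences and many values are tied at the floor. In most of the flagged genes all other cells of the group were at the floor of 7.64 log2 units, so that any cell with signal stands apart. Values are log2 of the signal raised to the floor.

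Among the cultured cells P5 C6 was the high cell in Cdk16 (11.68), Tbca (13.46), Usf2 (12.19), Myl12a (11.49) and Ift46 (9.95). E19 B1 was the high cell in Apc2 (8.78) and Supt6 (9.24), and P4 A3 in Eif2s3y (8.19), and these 3 and Ift46 were under the detection level.

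Among the uncultured cells P5 A8 was the high cell in Lsm3 (10.08) and Fam133b (9.90), P5 B2 in Ndufb3 (11.64) and Fundc2 (14.96), P5 B3 in Timm17b (14.02) and Gprasp2 (14.13), P5 A1 in Rims2 (14.19) and Srsf12 (13.71), and P5 A5 in Ppil2 (10.75). P5 B2 was the low cell in Tbca (9.32), and P5 A5 in Apc2 (7.64) and Supt6 (7.64). No gene was higher without overlap in one set of cells and lower without overlap in the other P5 pNdrg4 cells.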

How the results depend on the processing

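Counts past a limit moved with the settings. Genes higher and lower by at least 2 log2 units numbered 737 and 235; with a floor of 50 they were 1239 and 421, with a floor of 500 278 and 103, with the median over probe sets 429 and 145, with detection in at least 4 cells 384 and 145, with a limit of 1 log2 unit 1804 and 878, with 3 log2 units 180 and 38, and minus the median of all genes 465 and 390. With group medians 1310 were higher. With the P4 cells alone as cultured group 418 were lower, and with P5 C6 alone 1357 were higher and 433 lower. Genes without overlap, 39 higher and 9 lower, were 14 lower with a floor of 50, 21 lower under quantile normalization, 25 higher with detection in at least 4 cells, 231 higher and 35 lower for the P4 cells alone and 311 and 103 for P5 C6 alone, where fewer cells have to stand apart. The glycolysis median was -0.61 with no detection filter.

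Without each cell in turn, genes past 2 log2 units were 732 to 955 higher and 249 to 348 lower, and genes without overlap 50 to 135 higher and 14 to 21 lower, the highest of both without E19 B1. The list medians ran from -2.03 to -1.09 for glycolysis, 0.40 to 0.95 for oxidative phosphorylation, 0.16 to 1.01 for presynaptic genes, 0.87 to 1.74 for the citric acid cycle, -0.91 to -0.64 for the cytoskeleton and -0.67 to -0.38 for growing neurons; the lowest size for growing neurons was without P5 C6. Reversed values were Rims2 at -0.38 with the median over probe sets, Sphkap at -0.39 for the P4 cells alone, and Tbca at 0.15 and Tcf4 at -0.57 for P5 C6 alone. The cause was not tested.

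Other limits of Gad1 (500 or 2000) and an Slc6a9 limit of 500 left the same 10 cells. Under the settings of this section, the values followed were differences of named genes, counts of genes past a limit or without overlap, and list medians. Of all these values together, 1448 were classed as the same, 60 as moved and 4 as reversed. The 1448 include values under the limits that left the same 10 cells, which could not change. The tally is therefore no measure of stability. A named gene was held against the spread between cells and a count against its ratio to the main count. The 60 are therefore not all named genes that moved beyond the spread between cells. No paired analysis was possible because the cells carry no shared number or pairing between the groups.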
